A study of Caenorhabditis elegans with 26 samples.

Results

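Gene expression in whole larvae of N2, the wild-type strain of C. elegans, was compared between worms raised on the bacterium NA22 and worms raised on the bacterium OP50, late in larval life. The comparison took 8 of the 26 libraries of the series. It set the 4 NA22 libraries titled 30, 32, 34 and 36 h against the 4 OP50 libraries titled 27, 29, 31 and 33 h, each NA22 time paired with the OP50 time 3 h earlier so that stages match. No library was chosen by a measured value, and the description covers every gene of the table. The NA22 worms grew on plates of NGM, the standard worm agar, enriched in peptone, and the OP50 worms on ordinary NGM plates. NA22 and OP50 are both strains of Escherichia coli. In both courses eggs were isolated, the larvae hatched overnight without food as first-stage (L1) larvae, fed for the stated time, and were washed in M9 buffer before total RNA was extracted with Tri-Reagent. Ribosomal RNA was removed and libraries were made with ScriptSeq v2. The NA22 worms were harvested at the titled times, and the OP50 worms 1 h after theirs, at 28, 30, 32 and 34 h, because that course grew slowly per the labels. Each course was a single series of cultures and no time was sampled more than once. Bacterium, medium and day of growth therefore cannot be told apart, and p-values measure the spread of the difference over 4 stages, not the spread between cultures.

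Bacteria are the worm's only food, and the intestine, the main organ of digestion, fat storage and detoxification, adjusts its enzymes to them. Vitamin B12 from the bacteria is a cofactor of the enzymes that make methionine and that break down propionate, and when it is scarce worms switch on a B12-independent route, the propionate shunt. In late larvae these diet-dependent genes are read on top of large developmental programmes, since cuticle genes peak once in each molting cycle while sperm and yolk genes come on as the animal matures.

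Library totals were 26057777 to 32630558 counts in the NA22 libraries and 19146752 to 28448477 counts in the OP50 libraries. The 50 most abundant genes held 14.88% to 15.84% of counts on NA22 and 13.43% to 16.09% on OP50. Levels are in CPM, depth-scaled counts whose library totals were adjusted by TMM (trimmed mean of M values), and differences are log2 of NA22 over OP50 with the standard error of the fit. In this order of times the scaling factors were 0.9296, 0.9278, 0.84 and 0.9304 on NA22 and 1.182, 0.9999, 1.119 and 1.122 on OP50. The OP50 library of 29 h stands apart from its course in that factor and in its share of abundant genes, so counts are read without its pair as well. Below, a pair is named by its NA22 hour, and counts of a list with a pair left out or at another shift are edgeR's, given where they move by over 1.5 times. A gene with 0 counts could hold up to 3 counts, or 0.0989 to 0.125 CPM on NA22 and 0.106 to 0.134 CPM on OP50, for counting error only. In bulk RNA, fewer cells of a type and less RNA per cell cannot be told apart.

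How well the 3 h shift brings the stages together depended on the genes. Over all 15023 genes tested, the log2 profile of the NA22 libraries of 30, 32, 34 and 36 h was most like that of OP50 worms 2.75, 2.5, 2.25 and 2.25 h younger by title, interpolating between the hourly OP50 libraries. The 242 genes of the molting-cycle lists (collagens, molting enzymes and regulators, hedgehog- and patched-related genes) gave 3.0, 2.75, 2.5 and 2.5 h. The 118 genes of the germline lists (sperm, oocyte, eggshell and meiotic genes) gave 1.5, 1.75, 1.75 and 1.5 h. On the 3 h pairing the skin cycle is thus close to matched at 30 h, and every NA22 library is further on in its germline genes than its OP50 partner. The correlations across genes with the paired OP50 library were 0.965, 0.972, 0.958 and 0.958 over all genes, which describes likeness only, because genes are not independent.

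**Figure D1:**
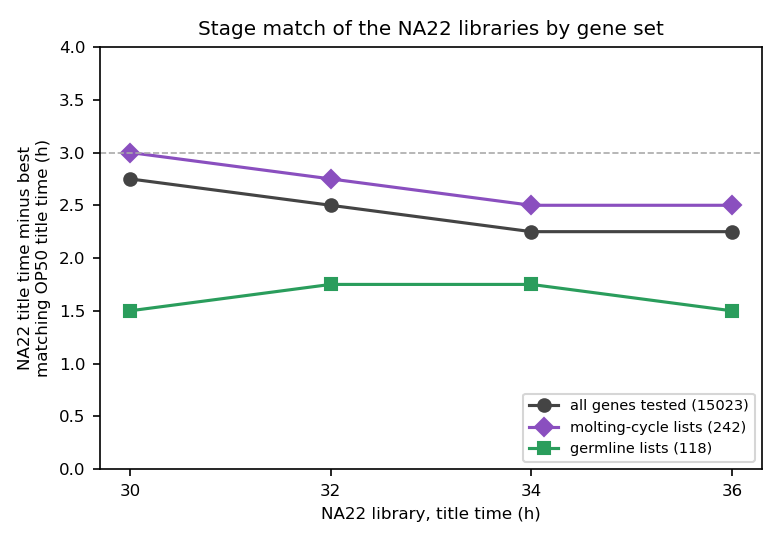
Stage shift of each NA22 library against its best matching OP50 time, for 3 gene sets. The y axis is the NA22 title time minus the interpolated OP50 title time with the highest correlation across genes (h), the x axis the NA22 title time (h), and the dashed line the 3 h pairing. The germline lists lie at 1.5 to 1.75 h, below the molting-cycle lists at 2.5 to 3.0 h.

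Of the 15023 genes tested, 908 were higher on NA22 (6.04%) and 1112 lower (7.4%), called at a Benjamini-Hochberg adjusted p under 0.05 by edgeR's quasi-likelihood test and a change of 2-fold or more, that is a log2 value of 1 or beyond. Scaled by library totals alone, 469 were higher and 2107 lower, because that scaling puts the median of all genes at -0.32, where TMM puts it at -0.04. Differences below are relative to the TMM centre. Every count of a list below is to be read beside 6.04% higher and 7.4% lower among all genes. The 4 NA22 libraries all lay above the 4 OP50 libraries in 7.75% of the genes tested and all below in 10.4%. A stricter comparison, added after the data were seen, asked that a called gene lie outside all 9 OP50 libraries of 26 to 34 h, whatever their stage. It kept 281 higher genes (1.87%) and 437 lower genes (2.91%). With the OP50 libraries taken 2 h or 4 h earlier instead, 239 of the 908 and 321 of the 1112 had the same call at both shifts. Among genes of 10 CPM or more, 600 of 9148 were higher and 225 lower (2.46%). Among the 1174 genes under 1 CPM, 29 were higher and 236 lower (20.1%), and among the 4701 genes between, 279 were higher and 651 lower (13.8%). Of 288 annotated pseudogenes 7 were higher and 86 lower (29.9%), with a median of -0.69. The part that level had in the lower calls was not tested.

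**Figure D2:**
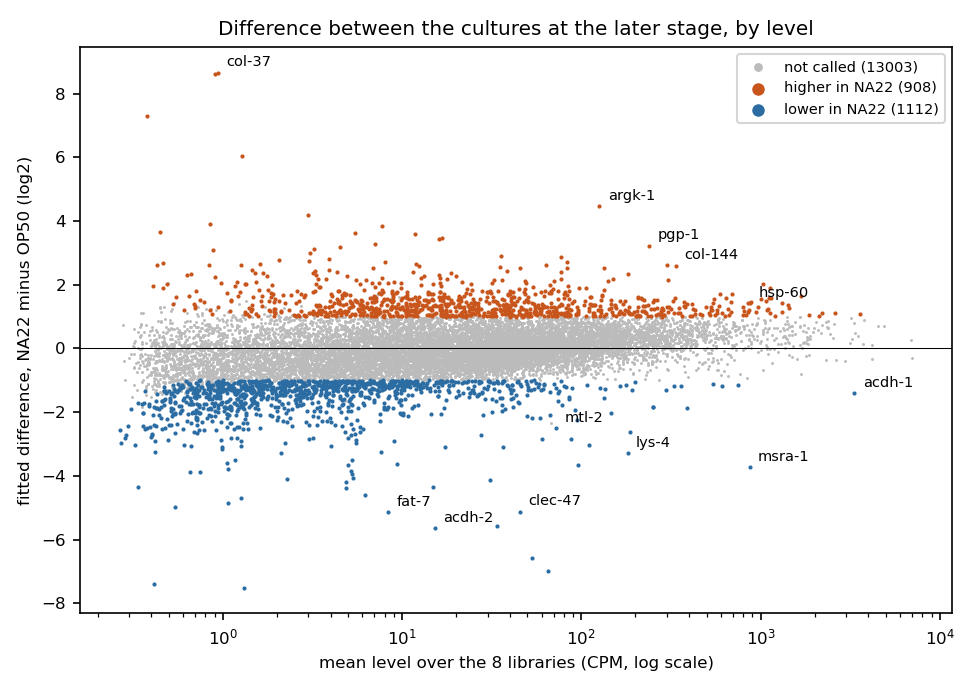
Fitted difference of every tested gene, NA22 minus OP50 (log2, y axis), against its mean level over the 8 libraries (CPM, log x axis). The 908 higher genes are orange and the 1112 lower genes blue. fat-7 and acdh-2 lie far below 0 and argk-1 and pgp-1 far above, and the fitted values above 7 belong to genes with 0 counts in every OP50 library.

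Among the largest falls on NA22 was that of fat-7, which encodes a desaturase that makes oleic acid from stearic acid. It was at 0.124, 0.619, 0.499 and 0.593 CPM in the NA22 libraries of 30 to 36 h, against 5.62, 18.8, 20.9 and 20.02 CPM in the OP50 libraries of 27 to 33 h. Every NA22 library lay far below every OP50 library, with the NA22 value of 30 h at the 3-count floor and the others not far above it. The difference was -5.15 ± 0.23 (adjusted p = 2.13e-05). fat-2, which adds the next double bond to oleic acid and was chosen after its values were seen, had 450, 687, 480.0 and 309 CPM on NA22 and 902, 1131, 1173 and 891 CPM on OP50. The groups do not overlap, and it fell by 1.14 ± 0.17, or by 0.99, under the 2-fold minimum, without the pair of 36 and 33 h. fat-6, the closest relative of fat-7, had 436, 532, 415 and 388 CPM on NA22 and 612, 700.0, 727 and 798 CPM on OP50. Its groups do not overlap, and the difference of -0.69 ± 0.15 (adjusted p = 0.0103) stayed under the 2-fold minimum, as did that of fat-5, which acts on palmitic acid, at -0.90 ± 0.17 (adjusted p = 0.00461). All 7 desaturases had negative differences, 2 of them called, with a median of -0.90. Among 12 genes of fatty acid synthesis and elongation the median was -0.17 and none was called by edgeR or DESeq2, with 6 at an unadjusted p under 0.05. At an adjusted p under 0.05 (edgeR) 1 of these 12 was higher and 3 lower, all under the 2-fold minimum. Lower desaturases numbered 4 without the pair of 34 h and 1 without that of 36 h, and at a shift of 2 h 1 was lower and fat-2 stood at -1.0, not called. In fatty acid synthesis 1 gene was higher without the pair of 30 h and 2 were lower without that of 32 h.

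Among lipid regulators the calls went the other way. Of 12, 3 were higher (25.0%, beside 6.04% of all genes), all with 4 NA22 libraries above the 4 OP50 libraries. The list median was 0.22 (-0.07 with library totals), with 8 differences positive and 4 negative. Among those not called, sbp-1 and nhr-80 stood at 0.41 and 0.18, and nhr-49, nhr-66 and nhr-13 at -0.01, -0.54 and -0.68. lpd-2, a leucine-zipper gene needed for fat storage, had 31.7, 27.2, 31.5 and 34.5 CPM on NA22 and 10.1, 14.3, 7.72 and 8.94 CPM on OP50, a difference of 1.63 ± 0.20 (adjusted p = 0.00103). hlh-30, the worm TFEB gene, rose by 1.45 ± 0.20, and mdt-15, a Mediator subunit known in worms as an activator of fat-6 and fat-7, rose by 1.08 ± 0.17. Both were chosen after their values were seen. mdt-15 falls under the 2-fold minimum with library totals (0.79), at shifts of 2 and 4 h (0.95 and 0.91) and without the pair of 34 and 31 h (0.98). The lipases split, with 4 of 19 lower (21.1%) and 1 higher (5.26%), beside 7.4% and 6.04% of all genes (median -0.05). The higher one was lipl-2, related to lysosomal acid lipases, at 38.2, 67.1, 71.7 and 75.0 CPM on NA22 and 8.36, 5.07, 8.10 and 12.3 CPM on OP50, several times above every OP50 library at each stage. It rose by 2.91 ± 0.24 (adjusted p = 0.000254). lipl-4, a lysosomal lipase, fell by 2.42 ± 0.49, with 0.165, 2.22, 0.956 and 0.923 CPM on NA22 and 1.503, 3.20, 10.47 and 7.46 CPM on OP50. These ranges overlap, and without the pair of 34 and 31 h its adjusted p was 0.0508. lipl-4 was not called at a shift of 4 h. Lower lipases numbered 2 without the pair of 34 h and at a shift of 4 h, and higher lipases 4 without the pair of 36 h and 2 without that of 32 h or at a shift of 2 h, so the balance of the list turns with a single pair.

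Several genes that answer to vitamin B12 fell, while their lists as wholes were mixed. acdh-1, the acyl-CoA dehydrogenase that opens the propionate shunt, had 885, 1698, 2276 and 2832 CPM on NA22, against 4852, 3666, 4759 and 5721 CPM on OP50. All NA22 values lay below all OP50 values, lowest at 30 h, and the difference was -1.40 ± 0.26 (adjusted p = 0.00466). Its relative acdh-2 had 0.330, 0.692, 0.166 and 0.429 CPM on NA22 and 80.7, 28.1, 8.31 and 3.98 CPM on OP50. On OP50 it was highest at 27 h and lower at each later time, while on NA22 it stayed under 1 CPM throughout. The difference was -5.64 ± 0.58 (adjusted p = 0.000490). mmaa-1, related to the human gene that loads B12 onto methylmalonyl-CoA mutase, had 118, 108, 103 and 109 CPM on NA22 and 432, 308, 408 and 419 CPM on OP50. Levels were nearly flat over the 4 stages on NA22 and all lay below the OP50 values, and it fell by 1.83 ± 0.14 (adjusted p = 0.000215). Among genes chosen after their values were seen, cblc-1, related to the human B12 processing gene MMACHC, fell by 1.31 ± 0.15, and nhr-68, a nuclear receptor that switches on the shunt, fell by 1.17 ± 0.20. Of the 15 propionate and B12 genes, 4 were lower and 2 higher, with a median of -0.40. The higher ones were mrp-5, a heme exporter of the intestine, at 1.0 and chosen after its values were seen, and pcca-1, a subunit of the B12-dependent route's propionyl-CoA carboxylase, at 689.5, 638, 617 and 457 CPM on NA22 and 223, 349, 263 and 208 CPM on OP50. pcca-1 rose by 1.22 ± 0.16, and by 0.93 with library totals. Of the other shunt enzymes, ech-6, hach-1 and hphd-1 stood at -0.26, -0.38 and -0.88 and alh-8 at 0.60, none of them called. acdh-1 was at -1.37, not called, at a shift of 4 h, and 1 gene of the list was higher without the pair of 30 h and at either other shift.

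In the methionine cycle the reductase that reactivates methionine synthase was lower. mtrr-1 had 96.0, 105, 147 and 99.3 CPM on NA22 and 368, 355, 442 and 400.0 CPM on OP50, with every NA22 library below every OP50 library, and it fell by 1.82 ± 0.13 (adjusted p = 0.000203). metr-1, methionine synthase itself, had 467, 825, 686 and 328 CPM on NA22 and 795, 1330, 889 and 845 CPM on OP50. Its ranges overlap, and the difference of -0.80 ± 0.18 (adjusted p = 0.00999) was under the 2-fold minimum. nhr-114, a nuclear receptor of the methionine-cycle response to low B12, was chosen after its values were seen. It had 28.04, 47.8, 34.9 and 32.1 CPM on NA22 and 108, 145, 117 and 109 CPM on OP50, which do not overlap, and fell by 1.76 ± 0.12. Among genes of the next steps, which turn homocysteine into cysteine, cth-1, cbs-1 and cbs-2 ran the other way. cth-2 stood at 0.08, not called. cth-1, cystathionine gamma-lyase, had 113.5, 53.6, 35.6 and 55.1 CPM on NA22 and 29.4, 22.5, 11.2 and 11.9 CPM on OP50, and rose by 1.77 ± 0.17 (adjusted p = 0.000363). cbs-1, cystathionine beta-synthase, rose by 1.63 ± 0.14, and its relative cbs-2 by 1.22 ± 0.33, although cbs-2 lost its call with library totals, at both other shifts and without the pair of 30 or of 34 h. The cbs genes were chosen after their values were seen. Of the 17 genes of the methionine cycle and of phosphocholine synthesis, 3 were higher and 2 lower, and the median was -0.40. msra-1, a methionine sulfoxide reductase, had 88.5, 109, 165 and 132 CPM on NA22 and 1310, 1288, 1780 and 2088 CPM on OP50. It stands outside the list, lay far lower at every stage, and fell by 3.72 ± 0.17 (adjusted p = 2.13e-05).

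**Figure D3:**
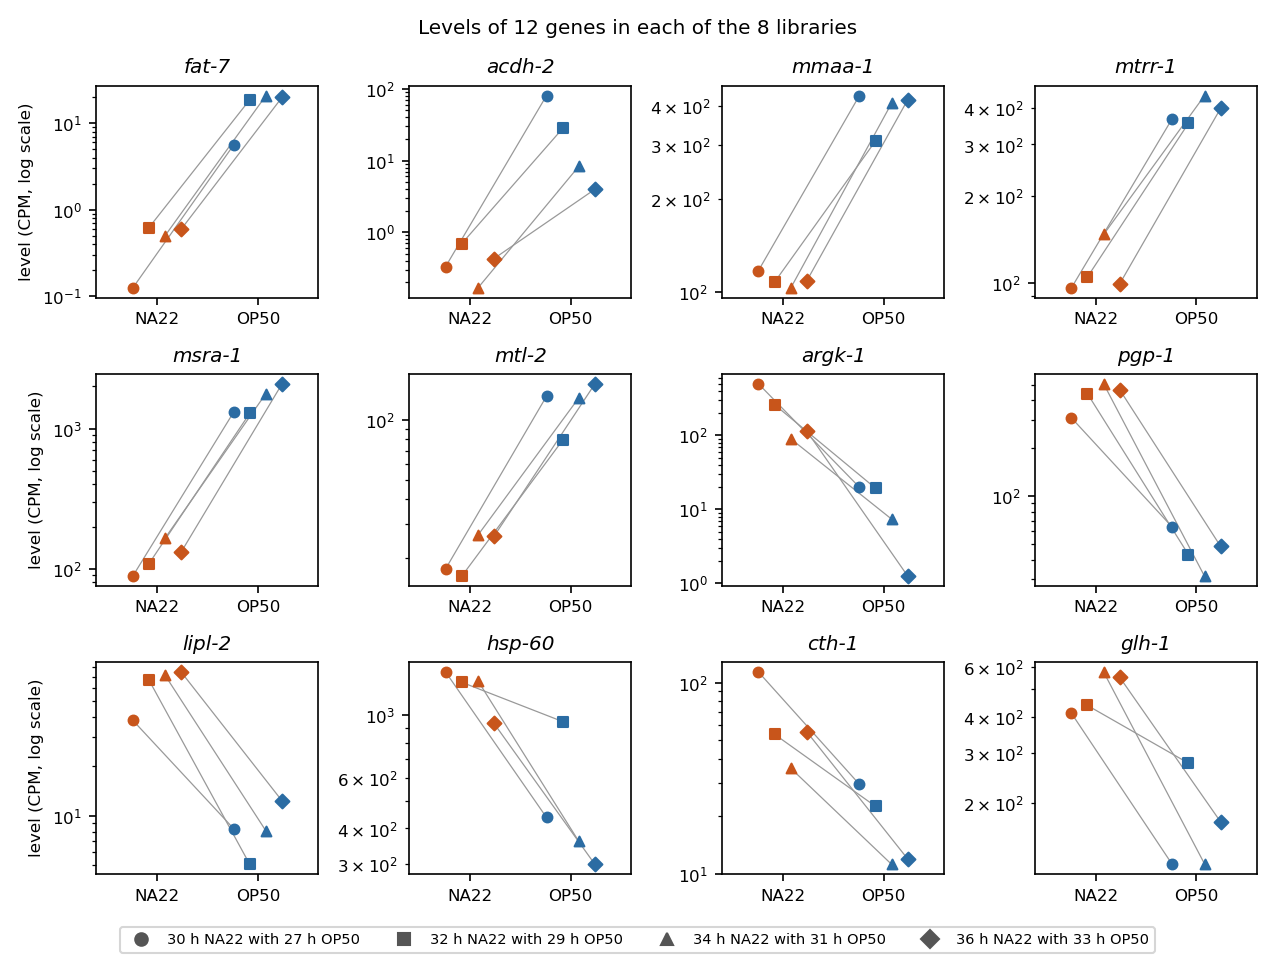
Levels of 12 genes (CPM, log y axis) in the 4 NA22 libraries (orange, left) and the 4 OP50 libraries (blue, right). Each point is 1 library, lines join the pairs set 3 h apart, and marker shapes give the pair. fat-7, acdh-2, mmaa-1, mtrr-1, msra-1 and mtl-2 are lower on NA22 in all 4 pairs and argk-1, pgp-1, lipl-2, hsp-60, cth-1 and glh-1 higher in all 4.

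Enzymes of sugar and energy metabolism were mostly above the centre on NA22. Of 23 glycolysis and gluconeogenesis genes 4 were higher and 21 had positive differences (median 0.51), and of 25 genes of the citrate and glyoxylate cycles 3 were higher and 20 positive (median 0.36). With library totals the medians were 0.23 and 0.08. pck-1, the PEP carboxykinase of gluconeogenesis, was chosen after its values were seen and had 286, 321, 262 and 157 CPM on NA22 and 67.6, 145, 79.1 and 78.2 CPM on OP50. It rose by 1.49 ± 0.19. dld-1, the dihydrolipoyl dehydrogenase shared by several mitochondrial complexes, had 259, 247, 265 and 195 CPM on NA22 and 90.6, 124, 68.5 and 69.7 CPM on OP50. The groups do not overlap, and it rose by 1.48 ± 0.16 (adjusted p = 0.000643). gpd-4, one of several near-identical glyceraldehyde phosphate dehydrogenase genes that can share reads, was scarce, at 0.702, 0.692, 1.25 and 1.62 CPM on NA22 and 0.177, 0.176, 0.382 and 0.0894 CPM on OP50. It rose by 2.31 ± 0.47. Of 10 trehalose and glycogen genes 1 was higher (median 0.29). This was pygl-1, glycogen phosphorylase, at 289.7, 301, 407 and 282 CPM on NA22 and 78.7, 142, 99.8 and 113 CPM on OP50, a difference of 1.57 ± 0.18. Of 14 amino acid breakdown genes none was called by edgeR or DESeq2, with 5 at an unadjusted p under 0.05 (median 0.14, and -0.14 with library totals). At an adjusted p under 0.05 (edgeR) 2 of them were higher, under the 2-fold minimum, and none lower. At a shift of 4 h 1 gene of each of the glycolysis and citrate cycle lists was higher. gpd-4 was at 1.30 at a shift of 2 h and at 1.18, not called, at 4 h.

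The largest rise among named genes of at least 10 CPM was in argk-1, an arginine kinase, of the same enzyme family as creatine kinase. It had 497, 259.7, 89.9 and 113.7 CPM on NA22, highest at 30 h, against 19.9, 19.3, 7.38 and 1.25 CPM on OP50, where it was also highest at the first times. The lowest NA22 library still exceeded the highest OP50 library, and the difference was 4.47 ± 0.41 (adjusted p = 0.000349). pgp-1, a P-glycoprotein pump of the intestine, had 310.0, 438, 506 and 464 CPM on NA22 and 63.9, 43.0, 31.5 and 48.3 CPM on OP50. It rose by 3.23 ± 0.26 (adjusted p = 0.000233). Among the 53 ABC transporters 3 were higher and 1 lower (median 0.19, and -0.10 with library totals). The lower one was pmp-5, of subfamily D, at 117, 137, 261 and 169 CPM on NA22 and 609, 498, 657 and 654 CPM on OP50, with no overlap, which fell by 1.88 ± 0.18. In fatty acid breakdown 3 of 42 genes were higher and 3 lower (median 0.14, and -0.14 with library totals). The lower ones were acdh-1, acdh-2 and cpt-5, a carnitine palmitoyltransferase gene, which had 6.53, 12.9, 6.28 and 4.38 CPM on NA22 and 31.3, 52.8, 66.01 and 39.9 CPM on OP50 and fell by 2.71 ± 0.24. The largest rise was in acdh-8, an acyl-CoA dehydrogenase gene with 9.29, 37.1, 109 and 141 CPM on NA22 and 3.54, 19.2, 42.9 and 77.5 CPM on OP50. It climbed with time in both courses and its groups overlap, and its difference of 1.12 ± 0.14 was 0.45 at a shift of 2 h and 2.05 at 4 h. The acyl-CoA synthetases had 1 of 22 higher and 1 lower (median 0.32). acs-10 climbed in the same way, with 4.997, 22.03, 56.0 and 62.1 CPM on NA22 and 1.37, 9.39, 14.8 and 30.9 CPM on OP50, and its difference of 1.47 ± 0.19 was 0.92 at a shift of 2 h. acs-24 was scarce and fell by 1.5 ± 0.28. With library totals acdh-8 was at 0.84, not called. Higher ABC transporters numbered 5 without the pair of 36 h and 1 at a shift of 2 h, and lower ones 2 without the pair of 32 h. Fatty acid breakdown had 1 higher gene without the pair of 34 h and at a shift of 2 h. The acyl-CoA synthetases had 2 higher without the pair of 34 h, 2 lower without that of 36 h, none higher at a shift of 2 h and 4 at 4 h.

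Of 12 lysozymes 6 were lower, beside 7.4% of all genes, and all but 1 had negative differences (median -0.94). Lysozymes digest bacterial cell walls, and those of the intestine act on swallowed bacteria. lys-4 had 36.7, 34.8, 41.7 and 21.95 CPM on NA22 and 250.3, 307, 423 and 339 CPM on OP50, several times lower in each pair, and fell by 3.30 ± 0.20 (adjusted p = 0.000100). lys-6, chosen after its values were seen, had 0.124, 0.0728, 0.0416 and 0.0330 CPM on NA22 and 1.77, 1.69, 2.37 and 2.41 CPM on OP50. lys-5 had 0.0413, 0.0364, 0 and 0.0330 CPM on NA22, against 1.64, 0.985, 0.890 and 0.715 CPM on OP50 (adjusted p = 0.000723). For both, the NA22 values are at or under the 3-count floor, so no fold is given. Both are among the 6 lower lysozymes and passed the count filter through their OP50 libraries alone. lys-10, another of the 6 and chosen after its values were seen, was also scarce. It had 0.0826 to 0.396 CPM on NA22 and 0.492 to 1.87 CPM on OP50. The C-type lectins, secreted sugar-binding proteins many of which answer to infection, went both ways: 18 of 129 were higher and 16 lower (median -0.01). Among all genes 6.04% and 7.4% were. clec-47 had 2.64, 2.80, 2.99 and 1.62 CPM on NA22 and 117, 63.5, 90.9 and 80.8 CPM on OP50. It fell by 5.12 ± 0.22 (adjusted p = 2.13e-05). clec-258 had 19.2, 6.12, 10.9 and 21.8 CPM on NA22 and 1.99, 0.633, 0.424 and 1.07 CPM on OP50 and rose by 3.83 ± 0.29 (adjusted p = 0.000215), with no overlap in either gene. clec-17 and clec-76 rose by 2.71 ± 0.22 and 2.53 ± 0.27. Among those chosen after their values were seen, clec-42 rose by 3.12 ± 0.36, clec-206 fell by 3.94 ± 0.33, and clec-3 had 0.124, 0.146, 0.0831 and 0.198 CPM on NA22, around the floor, and 1.59, 1.76, 2.33 and 2.32 CPM on OP50. clec-3 passed the count filter through its OP50 libraries alone. Of 66 saposin, caenacin and other antimicrobial genes 14 were lower (21.2%) and 1 higher (1.52%), with a median of -0.26. Only 4 were lower at a shift of 2 h and 4 at 4 h. The higher one was irg-1, an infection response gene, at 79.9, 21.3, 6.07 and 18.3 CPM on NA22 and 27.2, 17.7, 3.39 and 3.04 CPM on OP50. Its groups overlap, and its difference of 1.29 ± 0.33 lost its call without the pair of 30 h (adjusted p = 0.0705) or, at a difference of 0.91, that of 36 h. thn-2, a thaumatin-like gene chosen after its values were seen, fell by 2.29 ± 0.30. fip-4, a fungus-induced protein gene, had 0.0413, 0, 0.125 and 0.0659 CPM on NA22, at or under the floor, and 0.398, 0.739, 0.339 and 0.447 CPM on OP50. It passed the count filter through its OP50 libraries alone. The lower genes of this list were unevenly spread. Of 11 fipr genes (fungus-induced protein related) 7 were lower, none of them below all 9 OP50 libraries. Of 20 spp (saposin) genes 3 were lower, and no cnc (caenacin) gene was called. At a shift of 2 h 11 C-type lectins were higher, and at 4 h 3 lysozymes were lower and irg-1 was not called. Of the antimicrobial list 2 were higher without the pair of 32 h. lys-5 and fip-4 did not pass the count filter at the other shifts.

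Among the detoxification genes the largest falls at 10 CPM or more were in the cyp-35A group, cytochromes P450 of the intestine that answer to foreign chemicals and bear on fat storage. cyp-35A4 had 1.03, 0.983, 1.29 and 1.22 CPM on NA22 and 10.4, 10.1, 55.1 and 38.5 CPM on OP50. On OP50 it was several times higher in the last 2 libraries than in the first 2, while on NA22 it was level. It fell by 4.34 ± 0.37 (adjusted p = 0.000304). cyp-35A3 had 2.60, 1.71, 2.99 and 4.05 CPM on NA22 and 19.7, 23.7, 95.9 and 97.1 CPM on OP50 and fell by 4.12 ± 0.32, and cyp-35A2 fell by 2.62 ± 0.22. These genes are close copies and may share reads, so they are not independent. cyp-37B1 went the other way, with 11.3, 6.81, 26.2 and 68.03 CPM on NA22 and 1.02, 0.211, 1.70 and 13.1 CPM on OP50. It rose by 3.44 ± 0.34, but its groups overlap and it was not called at a shift of 2 h (2.38). In all, 12 of 57 cytochromes P450 were lower (21.1%) and 7 higher (12.3%), beside 7.4% and 6.04% of all genes (median -0.29). Of 64 UDP-glucuronosyltransferases, which attach a sugar group to toxins, 13 were lower (20.3%) and 2 higher (3.12%), with a median of -0.39. ugt-15 had 0.165, 0.0728, 0.0831 and 0.0330 CPM on NA22, around the floor, and 1.55, 1.37, 3.27 and 3.53 CPM on OP50. It passed the count filter through its OP50 libraries alone. ugt-44 had 436, 374, 338 and 306 CPM on NA22 and 313, 70.4, 144.4 and 146 CPM on OP50 and rose by 1.28 ± 0.27, but by 0.92 without the pair of 32 and 29 h and 0.99 with library totals. Of 41 glutathione transferases 3 were higher and 3 lower (median -0.19). gst-38 had 112, 68.5, 41.4 and 38.6 CPM on NA22 and 16.9, 15.8, 7.89 and 7.10 CPM on OP50 and rose by 2.42 ± 0.14 (adjusted p = 0.000100). gst-4, a common readout of oxidative stress chosen after its values were seen, fell by 1.28 ± 0.14, and gst-2 was scarce and fell by 1.84 ± 0.32. The 31 carboxylesterases had 1 higher, cest-1.1 at 1.74 ± 0.31, and 1 lower, cest-7 at -1.09 ± 0.20, which was -0.99 without the pair of 32 and 29 h (list median -0.32). Of 21 cathepsin and aspartyl proteases 2 were higher and 3 lower (median 0.27, and -0.02 with library totals), from cpr-3 at 1.21 ± 0.14 to asp-17 at -1.35 ± 0.21. gst-2 was at -1.09 and -1.30 at shifts of 2 and 4 h, cest-7 at -0.81 at 4 h and cpr-3 at 0.92 with library totals, none of them called. Higher glucuronosyltransferases numbered 4 without the pair of 30 h, none without that of 32 h and 1 without that of 34 h or at either other shift, and lower ones 17 without the pair of 32 h and 7 at a shift of 4 h. Without the pair of 32 h 5 glutathione transferases and 2 carboxylesterases were lower, and without that of 34 h or at a shift of 4 h 1 protease of the cathepsin and aspartyl list was higher.

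Metal and oxidant defence fell in 6 of 28 genes (21.4%) and rose in 1 (3.57%), beside 7.4% and 6.04% of all genes (median -0.16). mtl-2, a metallothionein of the intestine that binds zinc and cadmium, had 17.7, 16.3, 26.2 and 25.9 CPM on NA22 and 132, 79.3, 129.8 and 153 CPM on OP50, with each NA22 library far below each OP50 library. It fell by 2.51 ± 0.14 (adjusted p = 9.32e-05). ftn-1, a ferritin that stores iron, had 0.207, 0.837, 0.915 and 0.692 CPM on NA22 and 1.19, 3.55, 23.4 and 11.3 CPM on OP50. On OP50 it was many times higher at 31 and 33 h than at 27 h, on NA22 it stayed under 1 CPM, and it fell by 3.50 ± 0.44 (adjusted p = 0.00114). The catalase gene ctl-3 rose by 1.2 ± 0.27, but by 0.92 with library totals. Of the 17 intestinal marker genes 2 were lower, mtl-2 and ifo-1, with a median of -0.30. The summed level of its tested members was 3320 to 5400 CPM on NA22 and 3380 to 5030 CPM on OP50. These totals overlap. The part that gut content had in the calls of intestinal enzymes was not tested. ctl-3 was not called without the pair of 34 h, and 1 intestinal gene was lower there and at a shift of 2 h.

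Chaperones of the mitochondria, the endoplasmic reticulum and the cytosol were among the higher genes. hsp-60, the mitochondrial chaperonin, had 1419, 1306, 1322 and 936 CPM on NA22 and 437, 950.3, 360.4 and 299 CPM on OP50. The OP50 library of 29 h is the exception, since it reached the level of the lowest NA22 library, and the difference was 1.43 ± 0.24 (adjusted p = 0.00317). The mitochondrial hsp-6, the endoplasmic reticulum's hsp-4 and the cytosolic hsp-1, all members of the Hsp70 family chosen after their values were seen, rose by 1.17 ± 0.19, 1.22 ± 0.17 and 1.07 ± 0.20. With library totals these were at 0.88, 0.93 and 0.79, under the 2-fold minimum, and hsp-1 fell under it also without the pair of 30 or of 34 h (0.99 and 0.97). Of 47 heat shock and chaperone genes 5 were higher (10.6%, beside 6.04% of all genes) and 1 lower (median 0.28, and -0.00 with library totals). Without the pair of 32 and 29 h 9 were higher. The lower one, the small heat shock gene hsp-12.3, had 0.454, 0.401, 0.582 and 0.527 CPM on NA22 and 0.796, 1.55, 2.76 and 2.68 CPM on OP50, and fell by 1.89 ± 0.35. Of 79 ribosomal protein genes 7 were higher and 1 lower (median 0.37), or 8.86% higher, near the 6.04% of all genes. With library totals none was higher, 2 were lower and the median was 0.09. Without the pair of 30 h 2 were higher, and 10 without that of 32 h. rps-12 had 1828, 1623, 1525 and 1154 CPM on NA22 and 529, 919, 634 and 535 CPM on OP50 and rose by 1.25 ± 0.18, and by 0.96 with library totals. rps-21 fell by 1.16 ± 0.20, and by 0.98 without the pair of 32 h. In the body wall muscle list 2 of 18 were higher (median 0.64), and 6 without the pair of 32 and 29 h. mup-2, muscle troponin T, had 1087, 993, 945 and 894 CPM on NA22 and 264, 657, 254 and 376 CPM on OP50 and rose by 1.45 ± 0.24. The per-pair medians of the muscle list were 0.95, 0.04, 0.86 and 0.67, and those of the ribosomal proteins 0.58, -0.02, 0.61 and 0.29, so both lists were level in the pair that holds the OP50 library of 29 h. Of 23 neuronal genes none was called by edgeR or DESeq2, with 8 at an unadjusted p under 0.05 (median 0.18, and -0.10 with library totals). At an adjusted p under 0.05 (edgeR) 4 of them were higher, under the 2-fold minimum, and none lower. At a shift of 4 h hsp-6, hsp-1 and rps-12 were at 0.87, 0.91 and 0.97, not called, nor was hsp-12.3, and rps-21 was at -0.72 and -0.98, not called, at 2 and 4 h. Higher ribosomal protein genes numbered 4 without the pair of 34 h and at a shift of 2 h, and none at 4 h. Without the pair of 32 h 2 chaperone genes and 1 neuronal gene were lower, and without that of 30 or of 34 h 1 muscle gene was higher.

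Of 22 insulin peptide genes 2 were higher and 3 lower (median -0.46). daf-28, an insulin-like gene whose product keeps larvae out of the dauer arrest, had 0.867, 0.619, 0.624 and 0.527 CPM on NA22 and 0.0442, 0.211, 0.212 and 0.179 CPM on OP50. It was near the floor on OP50 and passed the count filter through its NA22 libraries alone. It rose by 1.98 ± 0.51 (adjusted p = 0.0163), a call that was lost without the pair of 30 or of 34 h (adjusted p = 0.0683 and 0.0594). ins-7, an insulin-like gene of the intestine, had 0.454, 1.49, 2.62 and 1.55 CPM on NA22 and 3.94, 4.54, 6.995 and 6.48 CPM on OP50 and fell by 1.96 ± 0.29. Of 193 nuclear hormone receptors 30 were lower and 2 higher (median -0.46), and 18 were lower without the pair of 34 and 31 h. nhr-235 had 9.70, 2.99, 0.291 and 0.0330 CPM on NA22 and 22.4, 26.2, 9.16 and 1.30 CPM on OP50. It dropped with time in both courses, its groups overlap, and it fell by 2.92 ± 0.53. nhr-178 rose by 1.19 ± 0.27, and by 0.91 with library totals. The list's median level was 9.53 CPM, and 13.8% of all tested genes of 1 to 10 CPM were lower, beside 15.5% of this list. Whether the list differs from other genes of its level was not tested. Lower insulin genes numbered 5 without the pair of 32 h and 1 at a shift of 4 h, and higher ones 1 without the pair of 30 h or at a shift of 2 h and none without that of 34 h or at 4 h. Lower nuclear receptors numbered 13 at a shift of 2 h and 13 at 4 h, and higher ones none without the pair of 34 h and 1 without that of 36 h or at a shift of 4 h. daf-28, ins-7 and nhr-235 were not called at a shift of 4 h.

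The list with the most higher genes was the cuticle collagens, the proteins of the worm's outer coat, laid down anew before each molt. Of 131 tested, 67 were higher, 51.1% beside 6.04% of all genes, and 3 lower (median 1.11). Their calls depend on the pairing, since 14 were higher at a shift of 2 h and 8 at 4 h, although the medians were 0.71 and 0.96. Without the pair of 34 and 31 h 40 were higher and without that of 32 and 29 h 81, whose own median was 0.26. Of the called genes 4 lay above all 9 OP50 libraries of 26 to 34 h. Among them are col-2, col-36 and col-37, described below, which were at or near 0 counts on OP50. Collagen genes resemble each other and can share reads. col-144 had 1391, 595, 47.2 and 306 CPM on NA22 and 219.9, 109, 13.1 and 28.4 CPM on OP50. Both courses ran from a high first library to a low in the NA22 library of 34 h and the OP50 library of 31 h, with NA22 above OP50 in every pair, and the difference of 2.60 ± 0.24 was 1.73 at a shift of 2 h and 1.48 at 4 h, not called at either. col-106 shows how steep the cycle is, with 4.58, 0.255, 17.3 and 536 CPM on NA22 and 0.531, 0.141, 1.82 and 105 CPM on OP50. Its difference was 2.70 ± 0.25, and 0.90 at a shift of 2 h. col-107 and col-167 rose by 2.62 ± 0.49 and 2.61 ± 0.23. dpy-13 and rol-6, collagens that set body shape and were chosen after their values were seen, rose by 1.58 ± 0.32 and 1.24 ± 0.25, and neither was called at a shift of 2 or 4 h. Among the lower ones col-154 fell by 1.5 ± 0.50 and kept its call in no fit with a pair left out. A few cuticle genes were almost absent on OP50. col-2, a collagen known mainly from dauer larvae, and col-37 were listed at 0 counts in all 4 OP50 libraries, and at 1.16, 4.26, 0.915 and 0.923 CPM and 1.36, 4.37, 0.956 and 0.791 CPM in the NA22 libraries. They were at least 13.5-fold and 14-fold higher on NA22, from the mean over the 4 NA22 libraries and the highest OP50 floor of 0.134 CPM. cut-1, a cuticlin known from dauer larvae, had 0.950, 1.201, 0.457 and 0.429 CPM on NA22 and 0 counts on OP50, at least 5.67-fold higher. col-36 had 3.35, 4.26, 1.79 and 0.758 CPM on NA22 and 0 counts on OP50 except for 0.134 CPM at 33 h. All but col-37 were chosen after their values were seen. All of them were highest at 32 h on NA22 and passed the count filter through their NA22 libraries alone. The lower collagens numbered 1 without the pair of 30, 34 or 36 h and none without that of 32 h or at the other shifts. col-107 and col-154 were not called at a shift of 2 or 4 h, nor col-167 at 4 h, and cut-1 did not pass the count filter there. rol-6 was at 0.95 with library totals.

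Other genes of the molting cycle moved less. Of 28 molting enzyme and matrix genes 4 were higher (median 0.39), and of 16 molting and oscillator regulators 1 (median 0.34). mlt-11, a protease inhibitor needed for molting, had 95.1, 1971, 3197 and 189 CPM on NA22 and 36.7, 604, 838 and 109 CPM on OP50. Both courses peaked at 34 h on NA22 and 31 h on OP50, higher on NA22, and the difference of 1.46 ± 0.20 was not called at a shift of 2 or 4 h, where it was 1.55 and 1.33. mlt-10, chosen after its values were seen, rose by 1.17 ± 0.24, and by 0.88 with library totals and 0.86 without the pair of 34 h. myrf-1, a membrane-bound transcription factor of the molting cycle, had 174, 278, 161 and 55.9 CPM on NA22 and 50.9, 109, 57.9 and 31.1 CPM on OP50 and rose by 1.36 ± 0.16. Of 39 hedgehog-related genes 6 were higher and 2 lower (median 0.03, and -0.25 with library totals), from grl-27 at 2.17 ± 0.35 to grd-3 at -1.34 ± 0.27, neither called at the other shifts. ptc-3, a patched-family gene, rose by 1.1 ± 0.25, 1 of 28 in its list (median 0.27, and -0.02 with library totals), and lost its call without the pair of 30 or of 34 h (0.98 and 0.83). alg-2, an Argonaute gene, rose by 1.15 ± 0.16, 1 of 15 heterochronic genes (median 0.22, and -0.07 with library totals), and by 0.87 with library totals. At shifts of 2 and 4 h mlt-10 was at 0.97 and 1.11 and ptc-3 at 0.92 and 0.89, not called, and at 4 h neither myrf-1 nor alg-2 was called. ptc-3 was at 0.82 with library totals. Higher hedgehog-related genes numbered 3 without the pair of 34 or of 36 h, 1 at a shift of 2 h and none at 4 h, and lower ones 1 without the pair of 32, 34 or 36 h and none at the other shifts. Among molting enzymes 1 gene was lower without the pair of 30 h, none was higher at a shift of 2 h and 1 at 4 h. Among regulators 3 were higher without the pair of 32 h, 2 without that of 36 h or at a shift of 2 h and none at 4 h, and 2 heterochronic genes were higher without the pair of 32 h.

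**Figure D4:**
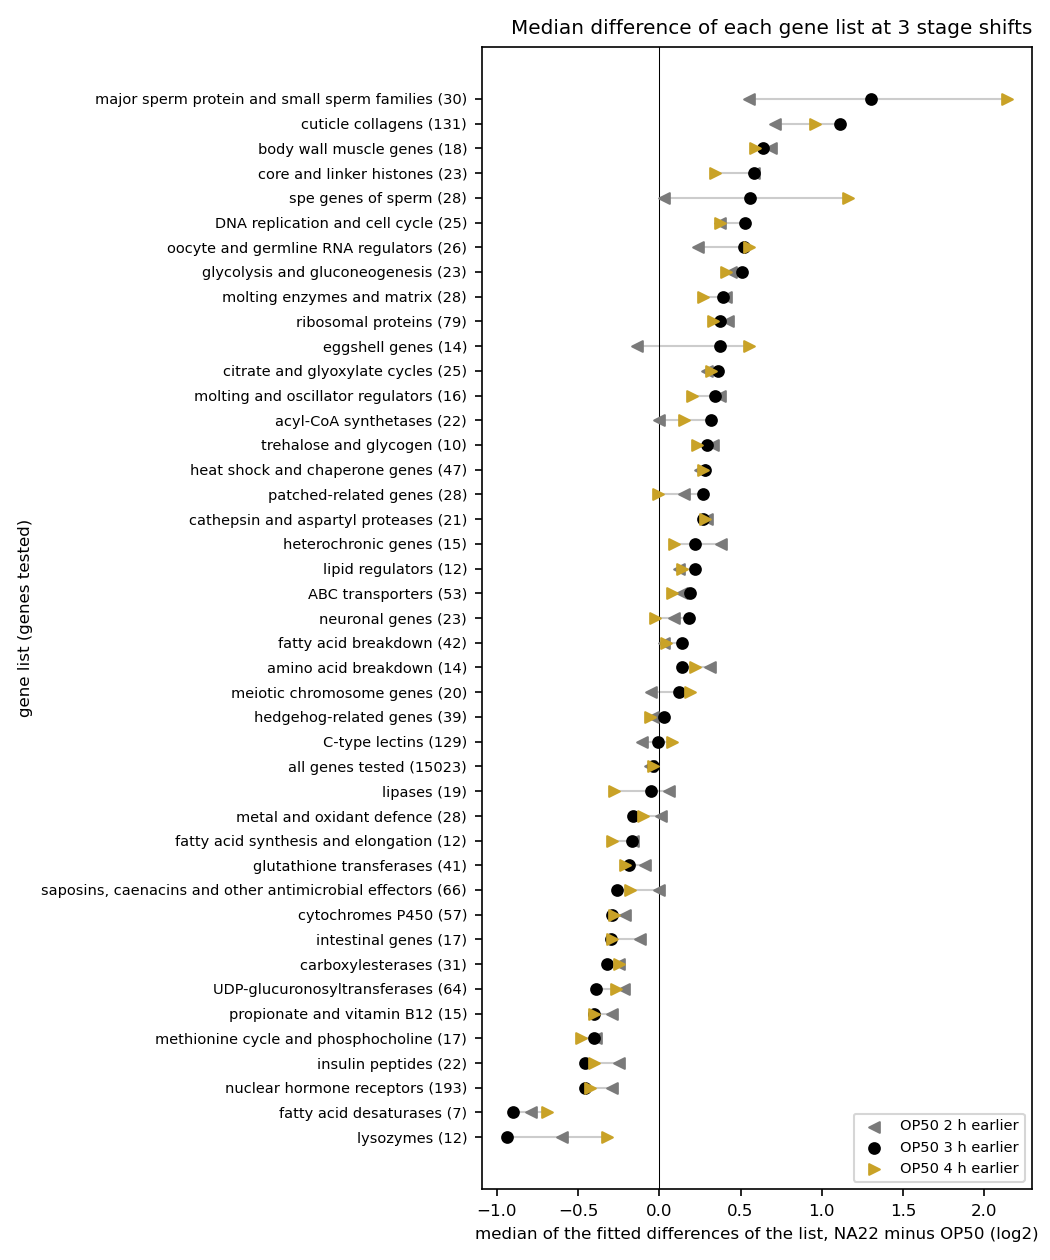
Median difference of each gene list, NA22 minus OP50 (log2, x axis), with OP50 libraries taken 2, 3 or 4 h earlier (left triangle, circle, right triangle), and the number of genes tested in brackets. The sperm lists move with the shift, from 0.55 to 2.14 for the first of them, while desaturases stay between -0.90 and -0.69.

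The germline genes that were called were all higher on NA22, and list medians followed the shift. Of 30 major sperm protein and small sperm family genes 17 were higher (median 1.30), and the median was 0.55 at a shift of 2 h and 2.14 at 4 h. Of 28 spe genes, needed for sperm to form and work, 6 were higher (median 0.56), with medians of 0.03 and 1.16 at the other shifts. None of the called sperm genes lay above all 9 OP50 libraries of 26 to 34 h. ssq-4, of a sperm-specific family, had 6.36, 29.96, 107 and 157 CPM on NA22 and 0.398, 8.16, 10.8 and 44.3 CPM on OP50. It climbed at every step in both courses, its groups overlap, and it rose by 2.53 ± 0.31. spe-18 rose by 1.77 ± 0.17 and, chosen after their values were seen, spe-11 and msp-76 by 1.75 ± 0.17 and 2.25 ± 0.42. At a shift of 2 h these 3 were at 0.91, 0.76 and 1.03, not called. Members of the msp family are near-identical and share reads. vit-2, a yolk protein gene of the intestine that comes on at the end of larval life, had 0.496, 16.1, 40.4 and 113 CPM on NA22 and 0.133, 10.6, 13.6 and 22.3 CPM on OP50. It climbed steeply in both courses, and its difference of 1.54 ± 0.28 was lost, at -0.11 and not called, with a shift of 2 h. Of 3 yolk genes tested it was the 1 called (median 0.40, and -0.49 at a shift of 2 h). perm-2, 1 of 14 eggshell genes (median 0.37), likewise had a difference of 1.33 ± 0.28, and of -0.39, not called, at a shift of 2 h. glh-1, the Vasa-like helicase of germ granules, kept its call at each shift. It had 413, 439.6, 575 and 551 CPM on NA22 and 122, 276, 123 and 172 CPM on OP50, with every NA22 library above every OP50 library, and rose by 1.59 ± 0.23 (adjusted p = 0.00209), 1.41 at a shift of 2 h and 1.49 at 4 h. Of 26 oocyte and germline RNA regulators 7 were higher (median 0.52), and 4 without the pair of 34 and 31 h. Among those chosen after their values were seen, glh-2 and mex-5 rose by 1.40 ± 0.24 and 1.36 ± 0.16, and gld-1 by 1.15 ± 0.17, which was 0.64 at a shift of 2 h. syp-1, of the synaptonemal complex, rose by 1.07 ± 0.14, 1 of 20 meiotic genes (median 0.12, and -0.17 with library totals). Of 25 DNA replication and cell cycle genes none was called by edgeR or DESeq2, with 19 at an unadjusted p under 0.05 (median 0.53). At an adjusted p under 0.05 (edgeR) 12 were higher and 3 lower, all under the 2-fold minimum. Of 23 histone genes 5 were higher (median 0.58), 9 without the pair of 32 h and none without that of 34 h (edgeR). Replication-dependent histone messages lack a long poly(A) tail, which the removal of ribosomal RNA used here does not require. Many histone copies are near-identical. his-63 was scarce and its difference of 1.39 ± 0.44 was called only with all 4 pairs or without that of 32 h. syp-1 was at 0.79 with library totals, 0.83 at a shift of 2 h and 0.96 without the pair of 36 h, not called in any of these. perm-2 was not called without the pair of 36 h (adjusted p = 0.095). Without the pair of 32 h 4 eggshell and 3 meiotic genes were higher, without that of 34 h 2 meiotic genes, and without that of 36 h or at a shift of 2 h none of either list. A shift of 2 h left 5 major sperm protein, no spe and 2 oocyte genes higher, with mex-5 at 0.86. gld-1 was at 0.95 at a shift of 4 h and 0.86 with library totals. Of the yolk genes 1 was lower without the pair of 36 h and at a shift of 2 h, of the cell cycle genes 1 was higher without the pair of 32 h, and of the histones 1 was higher at a shift of 4 h.

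Of the other genes with large differences, cylc-2 had 1.198, 4.33, 11.9 and 23.2 CPM on NA22 and 0, 0.879, 0.636 and 1.52 CPM on OP50 and rose by 3.62 ± 0.41. amt-1, an ammonium transporter gene, had 0.372, 1.02, 0.208 and 0.0659 CPM on NA22 and 22.2, 23.4, 1.65 and 0.581 CPM on OP50 and fell by 4.61 ± 0.44. Both genes changed with time in each course, and their NA22 and OP50 ranges overlap. fdgt-2, at 1.28, 1.13, 2.37 and 1.58 CPM on NA22 and 6.23, 6.58, 12.9 and 14.8 CPM on OP50, fell by 2.63 ± 0.23.

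The earlier stage gives another look at the same contrast with other libraries from the same cultures, the NA22 times of 24, 26 and 28 h against OP50 at 21, 23 and 25 h. In a fit of all 14 libraries 342 of 15591 genes were higher (2.19%) and 826 lower (5.3%) at the earlier stage. Of the 908 genes higher later, 262 (28.9%) were also called higher earlier, and 726 had the same sign. Of the 1112 lower later, 504 (45.3%) were called lower earlier, and 1091 (98.1%) had the same sign. The shared genes are 76.6% and 61.0% of the earlier calls. argk-1, pgp-1, fat-7 and acdh-2 had later differences of 4.47 ± 0.41, 3.23 ± 0.26, -5.15 ± 0.23 and -5.64 ± 0.58, beside 5.18 ± 0.62, 2.85 ± 0.30, -6.01 ± 0.28 and -5.81 ± 0.88 earlier. vit-2, acs-10 and gpd-4 had later differences of 1.54 ± 0.28, 1.47 ± 0.19 and 2.31 ± 0.47, beside -1.18 ± 1.53, -0.24 ± 0.60 and 0.01 ± 0.62 earlier. The test of the difference between the stages called no gene with edgeR (702 of 15591 at an unadjusted p under 0.05, smallest adjusted p 0.154) and 40 with DESeq2. The major sperm protein list had a median of 1.30 later and 0.03 earlier, and the collagens 1.11 later and 0.75 earlier.

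**Figure D5:**
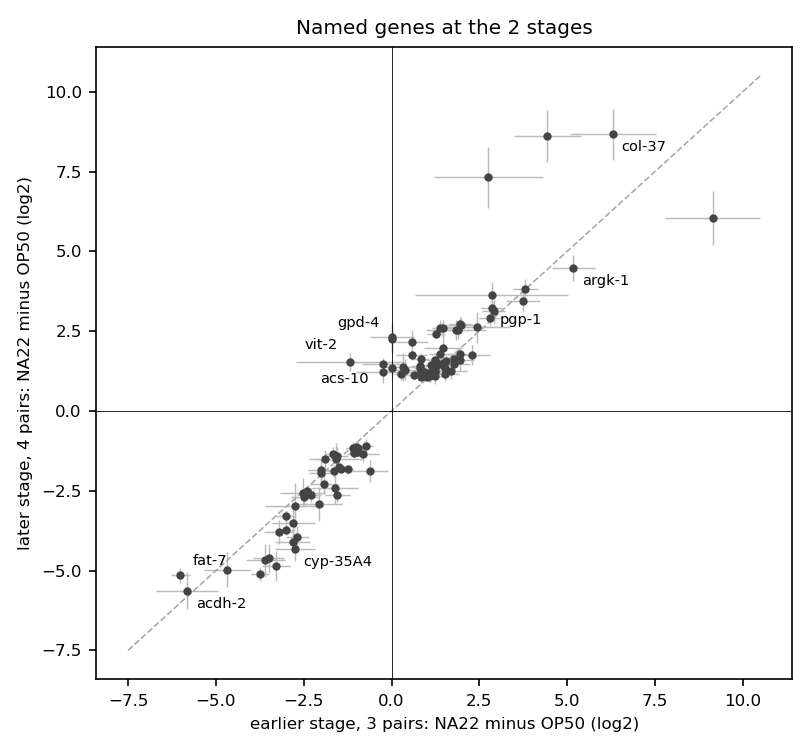
Differences of the named and called genes, NA22 minus OP50 (log2), at the later stage (y axis, 4 pairs) against the earlier stage (x axis, 3 pairs), with standard errors of the fits and a dashed line of equal values. fat-7, acdh-2, argk-1 and pgp-1 lie near the line, and vit-2 and acs-10 are left of 0. The highest points are genes with 0 counts in OP50 libraries, whose fitted values are no bound.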

How the data were processed

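RNA-seq counts per gene were analysed as deposited in a single table of 20182 genes and 26 libraries. A log2 table of the same libraries, deposited by the authors with normalization not given in the sources used here, served for 1 alternative only. Aligner, counter, genome build, annotation and strand setting are likewise not given in the sources used here, so genes with close copies or overlapping antisense genes may share counts.

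Genes that reached 10 counts, scaled to a library of median depth, in 4 or more libraries were tested with edgeR 4.0.16 in R 4.3.3 (quasi-likelihood F test, TMM factors, terms for course and stage pair, 3 residual degrees of freedom) over all genes at once. Calls needed a Benjamini-Hochberg adjusted p under 0.05 and a log2 difference of at least 1. The common biological coefficient of variation was 0.192. The procedure was tested on simulated data with independent counts and perfectly matched stages. That test cannot bear on stage mismatch or on the single culture series of each course. The pairs come from the titles alone. Across genes, deviations from the course mean correlated at 0.929, 0.728, 0.854 and 0.908 within the pairs of 30, 32, 34 and 36 h, and at no more than 0.5 with any other library of the opposite course. CPM values carry no gene length, so levels are not compared between genes. The floor of 3 counts covers counting error only.

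Members and gene lists were chosen with earlier results of these data known. Named genes are the 12 largest rises and 12 largest falls of genes that were called and carry a gene name, with the same sign in 4 of 4 pairs and at least 10 CPM in the higher course, the called extremes of each list, and fat-5, fat-6, fat-7, acdh-1, metr-1, argk-1, pgp-1 and vit-2. Gene IDs matched a symbol in 18778 cases. Alternatives used DESeq2 1.42.0, limma 3.58.1 on the deposited log2 values centred on each library's median, other scalings, filters and shifts, no pair term, and each pair left out. A planned promoter motif description was not run, because promoter sequences were not used here.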

Additional observations from a re-analysis of the deposited data

Results flagged for a closer look

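Among the genes named above, each pair's own log2 difference, on CPM with 0.5 added, was set against the other 3 pairs, and 8 genes had 1 pair far from the rest. Chance alone singles out about 1 in 20 such sets of 4.

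In the pair of 30 h, acdh-1 differed by -2.45, beyond its other pairs at -1.11 to -1.01. In that pair daf-28 stood at 1.33, beside 0.60 to 0.66 in the others, and nhr-178 at 0.42, beside 1.08 to 1.2.

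In the pair of 32 h, which holds the OP50 library of 29 h, hsp-60 stood at 0.46, beside 1.64 to 1.87 in the others. alg-2 stood there at 0.60, beside 1.30 to 1.34, and mdt-15 at 0.43, beside 1.21 to 1.36. The collagen col-2 went the other way in that pair, at 3.25 beside 1.5 to 1.73. In the pair of 36 h, gpd-4 stood at 1.84, beside 0.82 to 0.99.

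Among the 4 NA22 libraries that of 34 h had a TMM factor of 0.84, below the others at 0.9278 to 0.9304. Its totals and its share of abundant genes lay within their range.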

How the results depend on the processing

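The counts of 908 higher and 1112 lower genes stayed within 1.5 times of themselves with DESeq2's size factors, with no low-count filter and with DESeq2's test. Library totals alone gave 469 and 2107, limma 713 lower, no minimum size 2829 and 2799, a minimum of 2 on the log2 scale 99 and 188, and a place outside all 9 OP50 libraries of 26 to 34 h, added after the data were seen, 281 and 437. A shift of 2 h gave 415 and 693, and a shift of 4 h 468 lower. Without the replicate block, that is the pairing by stage, 169 were higher and 331 lower. With each pair left out the counts ran over 660 to 1081 higher and 722 to 1400 lower, both highest without the pair of 32 and 29 h, and the lower count smallest without that of 34 and 31 h. Of the 105 named genes that were called, 105 kept their call with DESeq2's test, 100 with limma, 86 with library totals, 51 with no block, 74 at a shift of 2 h, 68 at 4 h and 93 to 101 with a pair left out. vit-2 and perm-2 changed sign at a shift of 2 h, at -0.11 and -0.39, but were not called there (edgeR adjusted p = 0.894 and 0.25). The stage interaction called 0 genes with edgeR, 0 to 1 with a pair left out, and 40 with DESeq2. The cause of these changes was not tested. Genes under 1 CPM rest on few counts, and with 1 culture series per bacterium no setting separates bacterium, medium and day.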

Other observations

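The genes and families below were picked with their values in view, which come with no test beyond the fit over all genes. Heme-responsive genes stood out among families outside the lists. Of 9 hrg genes tested, 4 were higher on NA22 and 2 lower. hrg-7, which encodes a secreted aspartic protease-like protein of the intestine, had 1445, 2109, 2026 and 1016 CPM on NA22 and 254, 334, 559 and 471 CPM on OP50. Each NA22 library exceeded each OP50 library, and it rose by 2.04 ± 0.26. hrg-3 and hrg-1, which move heme in worms, rose by 2.83 ± 0.48 and 1.49 ± 0.21, and hrg-2 by 1.54 ± 0.25. hrg-5 fell by 2.38 ± 0.43 and hrg-6 by 1.12 ± 0.21.

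D1014.6, D1014.7 and Y71G12B.18, to which the files give no role, came on in a short wave in the OP50 course. The NA22 course did not come near its height at 18 to 36 h. Over all genes tested, the NA22 libraries of 34 and 36 h were most like OP50 worms of 31.75 and 33.75 h by title. On a scale common to all 26 libraries, Y71G12B.18 was at 7.0 CPM in the OP50 library of 29 h, 258 at 31 h, 317 at 32 h, 272 at 33 h, 85.7 at 34 h and 6.63 at 36 h. D1014.6 ran in step, at 4.15, 203, 257, 230.0, 74.5 and 4.11 CPM at those times, and D1014.7 reached 155 CPM at 32 h. In the NA22 libraries of 18 to 36 h the highest value, at 34 h in each case, was 1.91 CPM for Y71G12B.18, 1.78 CPM for D1014.6 and 1.48 CPM for D1014.7. Fitted over the pairs the differences, in the same order, were -7.0 ± 0.82, -6.59 ± 0.59 and -5.58 ± 1.24.

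Among other families, 31 of 119 fbxa (F-box) genes were lower and 2 higher, and 8 of 11 str, 4 of 6 srt and 3 of 6 srx chemoreceptor genes were lower, with 1 str gene higher. The median level was 4.35 CPM in fbxa genes and under 1 CPM in the others, where lower calls were frequent among all genes, so whether these families differ from genes of their level was not tested. Higher calls held 5 of 6 ttbk kinase genes, none of them above all 9 OP50 libraries, and 4 of 6 ubxn genes, 3 of them above all 9.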
